A study of Mus musculus with 2 samples.

Results

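The 38 genes described here mark the primed epiblast and the early germ layers, and were taken from a fixed list of symbols out of 22421 genes that the deposited tables measured. They comprise 12 genes of the primed epiblast, 15 of the primitive streak and mesoderm, and 11 of the neuroectoderm. Each gene is represented by its listed RefSeq transcript with the highest summed value, and genes listed at 0 were kept. The RNA came from mouse CGR8 embryonic stem cells, a line grown on gelatin without feeder cells in serum-containing medium with leukaemia inhibitory factor (LIF). Cells of 1 sample received a negative control siRNA and cells of the other an siRNA against Set1a, given in 2 transfections within 72 hours. Each group is 1 library, so no difference below has a replicate check and no p-value is given. The gene Setd1a (called Set1a in the labels) codes for an enzyme that methylates lysine 4 of histone H3, and the design asked what lowering it does to gene expression across the genome.

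Embryonic stem cells in serum and LIF stand for the naive epiblast of the blastocyst. When they leave that state they pass through a primed, post-implantation stage, marked by genes such as Fgf5, Otx2 and Pou3f1, before they take up a germ layer fate. The primitive streak, induced by WNT and NODAL signals, gives rise to mesoderm and is marked by T (brachyury) and Mixl1, whereas anterior epiblast forms neuroectoderm, marked by Sox1 and Pax6. Many promoters of such developmental genes lie in CpG islands, where methylated H3 lysine 4 and the repressive Polycomb mark can occur together in stem cells.

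Levels are in RPKM, read numbers scaled by transcript length and library depth, and allow genes to be compared per length. The values corresponded to about 6660000 reads for cells given the control siRNA and 6420000 for those given the Set1a siRNA. Setd1a itself was at 14.2 RPKM with the control siRNA and 11.97 RPKM with the Set1a siRNA, a ratio of 0.846. Its exact 95% counting interval was 0.746 to 0.959, so the targeted transcript was modestly lower, in the direction of its label. By the same rule, 10.1% of 13404 genes with at least 10 reads in both libraries together had an interval below 1, and 11.8% above. An interval below 1 is thus common and does not by itself show the knockdown. These intervals cover counting error only, not variation between cultures. The cells carried stem cell transcripts: all 15 genes of a pluripotency list were above 1 RPKM, with summed levels of 2541 and 2451 RPKM (here and below, the control siRNA library first). Of these 15, 5 had a counting interval below 1 (10.1% of all genes by the same rule) and 0 above (11.8%). The 5 were Nr0b1 (ratio 0.769), Klf5 (0.867), Tcl1 (0.868), Tfcp2l1 (0.871) and Sox2 (0.875). Their reads are many and their intervals narrow. Of 8 trophectoderm markers 4 were above 1 RPKM, with sums of 29.9 and 25.6 RPKM and Cdx2 listed at 0 in both libraries. Of the 5 with at least 10 reads, 2 had an interval below 1 and 0 above. These were Tead4, with a ratio of 0.622 (0.489 to 0.789), and Tfap2c, with a ratio of 0.815 (0.666 to 0.997). None of 7 primitive endoderm markers reached a mean of 1 RPKM (sums 2.28 and 2.69 RPKM), and none of 4 blood markers did (0.759 and 1.02 RPKM). Of 7 fibroblast markers only Thy1 did, the sums being 2.52 and 4.30 RPKM, and Col1a2, Postn and Dcn were listed at 0 in both libraries.

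The promoters of the markers are shown because the protein that was targeted methylates histones at promoters. RefSeq promoter sequences (build GRCm38.p6) were at hand for 31 of the 38 genes, as 36 promoters, since Otx2, Pax6 and Dcx have several. Those of Fgf8, Fgf15, Pou3f1, Cdh2, Zic2, Mixl1 and Sox3 are not printed here. The 5 sequences below are the 250 bases before the start of transcription, 5′ to 3′ on the strand of the gene, with each CG dinucleotide in capitals. Sfrp2 (chr3:83766071-83766320, plus strand) and Twist1 (chr12:33957421-33957670, plus strand) were higher in the Set1a siRNA library beyond counting error, and Cer1 (chr4:82885152-82885401, minus strand) was lower; for Twist1 and Cer1 this does not hold with a 99% interval. Foxd3 (chr4:99656049-99656298, plus strand) was the most abundant epiblast marker and nearly equal in both, and Foxc1 (chr13:31806396-31806645, plus strand) was listed at 0 in both.
Sfrp2: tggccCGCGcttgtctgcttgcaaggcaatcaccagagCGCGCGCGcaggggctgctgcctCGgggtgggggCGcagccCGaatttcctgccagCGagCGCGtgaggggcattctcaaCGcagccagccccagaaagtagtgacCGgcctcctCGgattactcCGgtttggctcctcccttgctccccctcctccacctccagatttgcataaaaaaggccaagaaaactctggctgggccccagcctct
Twist1: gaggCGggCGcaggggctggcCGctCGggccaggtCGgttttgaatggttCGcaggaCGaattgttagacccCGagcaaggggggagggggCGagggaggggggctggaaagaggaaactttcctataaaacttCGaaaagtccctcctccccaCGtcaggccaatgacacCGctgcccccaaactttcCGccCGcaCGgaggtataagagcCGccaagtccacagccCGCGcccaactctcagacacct
Cer1: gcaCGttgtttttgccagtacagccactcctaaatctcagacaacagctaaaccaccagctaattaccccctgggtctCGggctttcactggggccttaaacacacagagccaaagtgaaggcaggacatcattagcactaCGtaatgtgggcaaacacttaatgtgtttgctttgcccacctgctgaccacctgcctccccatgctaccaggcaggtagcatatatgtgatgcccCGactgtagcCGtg
Foxd3: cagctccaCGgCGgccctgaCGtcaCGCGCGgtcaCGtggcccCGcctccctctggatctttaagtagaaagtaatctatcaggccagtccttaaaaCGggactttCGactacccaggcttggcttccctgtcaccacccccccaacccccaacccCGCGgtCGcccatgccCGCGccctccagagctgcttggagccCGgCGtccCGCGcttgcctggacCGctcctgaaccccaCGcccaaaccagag
Foxc1: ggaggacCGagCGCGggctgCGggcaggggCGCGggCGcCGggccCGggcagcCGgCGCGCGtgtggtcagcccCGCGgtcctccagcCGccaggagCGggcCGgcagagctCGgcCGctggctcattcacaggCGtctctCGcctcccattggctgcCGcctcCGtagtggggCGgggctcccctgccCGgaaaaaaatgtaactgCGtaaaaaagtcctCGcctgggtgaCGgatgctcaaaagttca

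The Cer1 window holds 5 CG dinucleotides, that of Sfrp2 16, that of Twist1 18, that of Foxd3 21 and that of Foxc1 29. Over the 36 marker promoters the median was 16, against 6 over all 32851 promoters of the RefSeq table. At least 15 CG dinucleotides, a number chosen after the values were seen, were found in 22 marker promoters (61.1%) and in 27.3% of all promoters. The letters TATAA, searched on both strands, occurred in 10 marker promoters (27.8%) and in 22.8% of all promoters. CG-rich windows belonged to markers at every level: Tubb3 has 21 CG dinucleotides at a mean of 28.7 RPKM, Hes5 has 32 and Lhx1 has 26 with no read in either library. Lin28b, at a mean of 6.58 RPKM, has 6. The plot of promoter CG number against level shows this spread, and a match of letters is a description, not a binding site.

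**Figure D1:**
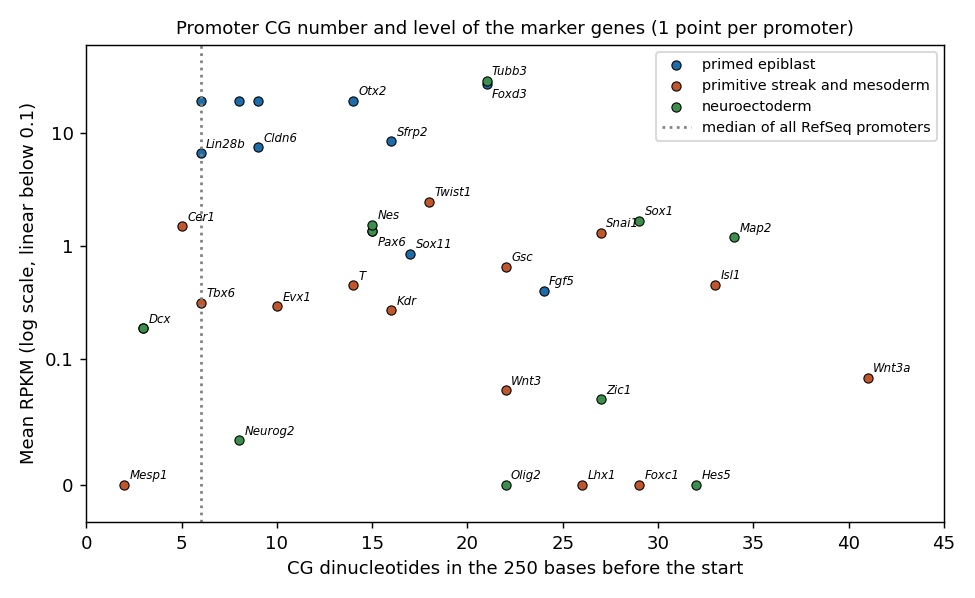
CG dinucleotides in the 250 bases before the transcription start (x axis) against the mean RPKM of both libraries (y axis, log scale, linear below 0.1), 1 point per promoter of a marker gene, coloured by role; several promoters of 1 gene share its level and its name is written once. Most points lie to the right of the dotted line, the median of 6 of all RefSeq promoters, at levels from 0 to 28.7 RPKM.

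In these cells the markers ranged from well expressed to not detected. A mean of at least 1 RPKM over both libraries was reached by 16 of the 38 genes (7 epiblast, 3 streak and mesoderm, 6 neural), as it was by 52.6% of all genes. Map2, at a mean of 1.19 RPKM, was the lowest above that floor, and Pou3f1, at 0.994 RPKM, the highest below it. In both libraries together, 26 markers had at least 10 reads and 7 had fewer. The remaining 5, Mesp1, Lhx1, Foxc1, Hes5 and Olig2, were listed at 0 in both, as were 24.0% of all genes. A count of 0 allows up to 3 reads, which in the Set1a siRNA library would be 0.0799 RPKM for the long Foxc1 transcript and 0.367 RPKM for the short Hes5 transcript. The plot of levels by role shows Tubb3, Foxd3 and Otx2 as the 3 highest markers, in that order, in both libraries.

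**Figure D2:**
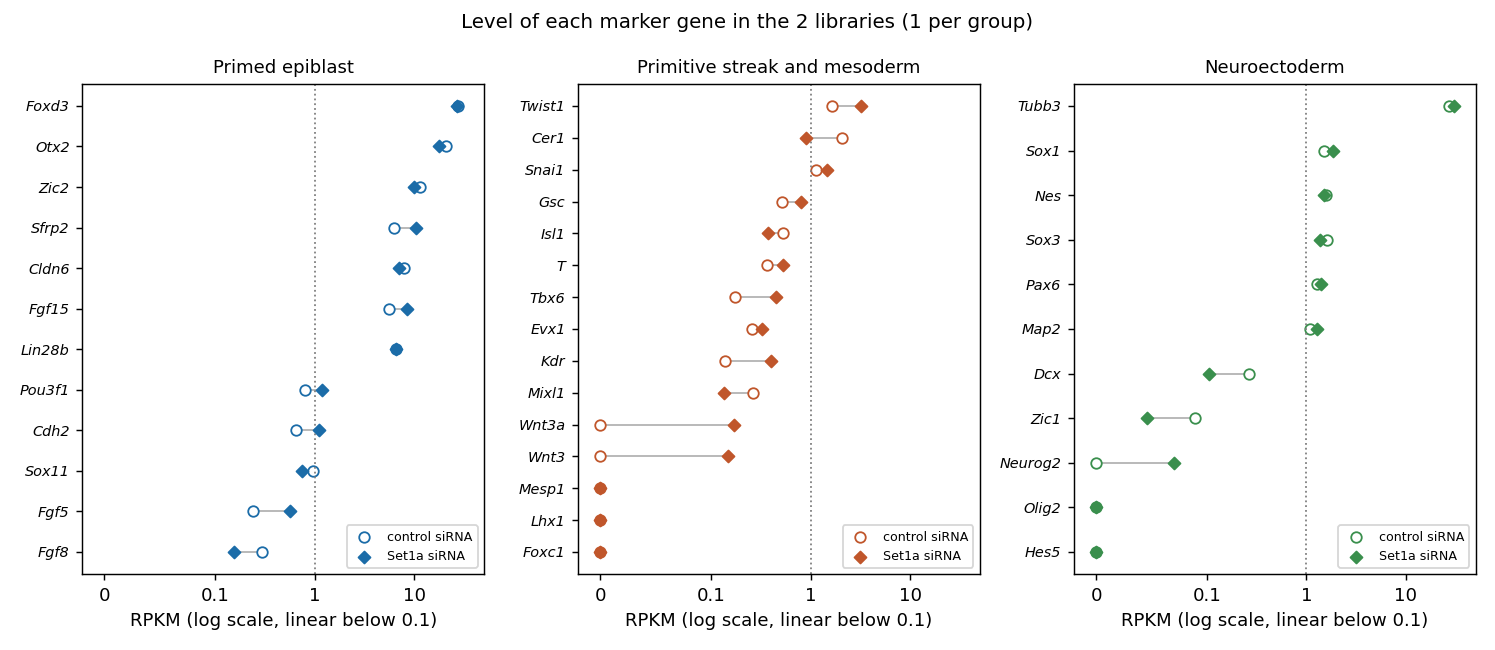
Level of each of the 38 markers in RPKM (x axis, log scale, linear below 0.1), 1 row per gene in 3 panels by role; open circles are the control siRNA library and filled diamonds the Set1a siRNA library. Epiblast markers reach 27.2 RPKM (Foxd3), streak and mesoderm markers stay at or below 3.25 RPKM (Twist1), and among neural markers Tubb3 stands above 27 RPKM in both libraries while the rest stay below 2 RPKM.

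Between the libraries, the markers as a group differed little. With 1 RPKM added to each value, which understates changes of low genes, 0 of the 16 markers above the floor passed 2-fold upward after the Set1a siRNA and 0 passed it downward. Of 11802 genes above the floor, 0.771% did so upward and 0.407% downward, so a count of 0 among 16 is near those shares. The 16 values of log2((Set1a siRNA RPKM + 1)/(control siRNA RPKM + 1)) ran from -0.70 (Cer1) to 0.68 (Twist1), with 8 higher and 8 lower. Their median was 0.03, beside 0.0063 over all genes above the floor. Among markers with at least 10 reads, the counting interval of the RPKM ratio lay above 1 for Sfrp2, Fgf15 and Twist1 (3 of 26) and below 1 for Cer1 (1 of 26). By the same rule, 11.8% of 13404 genes lay above 1 and 10.1% below, so these counts are near or under those of genes in general. In bulk RNA, a change in the number of cells that express a marker and a change in RNA per cell cannot be told apart.

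**Figure D3:**
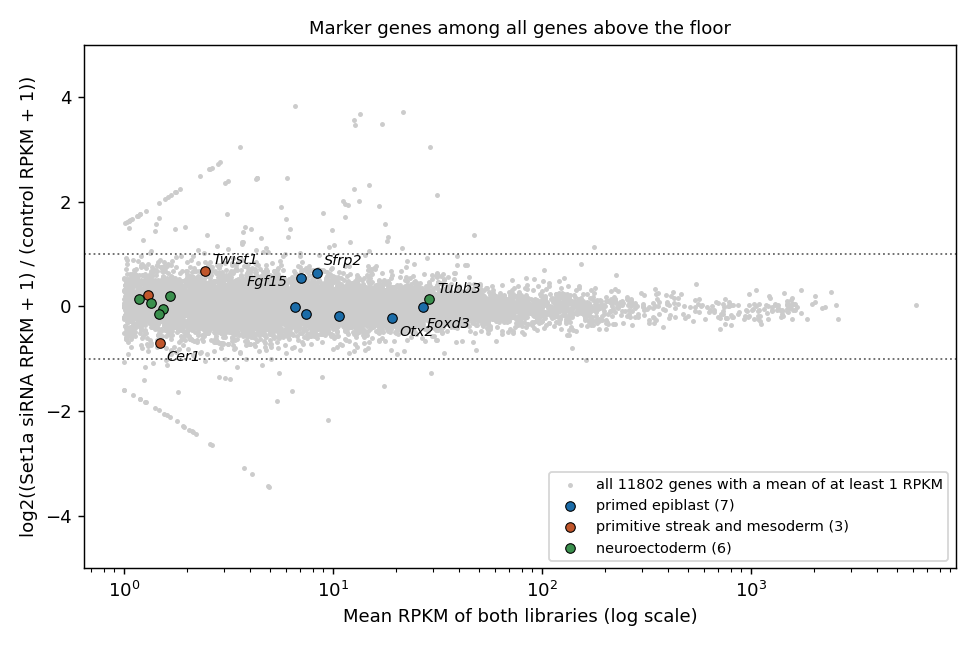
The log2 fold with 1 RPKM added to each value (y axis) against the mean RPKM of both libraries (x axis, log scale) for all 11802 genes above the floor (grey) and the 16 markers among them (coloured by role). All 16 markers lie between the dotted lines at 2-fold, from -0.70 for Cer1 to 0.68 for Twist1.

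The most abundant primed epiblast genes, Foxd3, Otx2 and Zic2, encode transcription factors, and their levels were similar in both libraries. Foxd3, a forkhead factor needed to maintain pluripotent cells, was at 27.16 RPKM with the control siRNA and 27.10 RPKM with the Set1a siRNA, from 420 and 404 reads. Its ratio was 0.998 (0.868 to 1.15), and it ranked at the 90.1 percentile of all genes by mean RPKM. Otx2, a homeobox factor that directs exit from the naive state, was at 20.7 and 17.6 RPKM from 237 and 195 reads, a ratio of 0.853 (0.702 to 1.04). Zic2, a zinc finger factor of the epiblast and neural plate, was at 11.4 and 9.92 RPKM, with a ratio of 0.871 (0.694 to 1.09). Both were lower with the Set1a siRNA, but each interval included 1. Of the factors with a mean under 1 RPKM, Sox11, a SOX family factor of neural progenitors, was at 0.960 and 0.737 RPKM. Its ratio was 0.768 (0.497 to 1.18) from 54 and 40 reads. Pou3f1, also called Oct6, a POU factor of the primed epiblast, was instead higher, at 0.798 and 1.19 RPKM, with a ratio of 1.49 (0.754 to 3.02), and its interval also included 1.

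Of the 11 epiblast genes with at least 10 reads, 2 had an interval above 1 (11.8% of all genes by the same rule) and 0 below (10.1%). These 2, Sfrp2 and Fgf15, both encode secreted factors, but so few genes show no pattern. Sfrp2, which binds WNT ligands outside the cell, was at 6.31 RPKM with the control siRNA and 10.4 RPKM with the Set1a siRNA. From 84 and 134 reads its ratio was 1.65 (1.25 to 2.20). Fgf15, an FGF ligand expressed in the early embryo, was at 5.57 and 8.53 RPKM from 67 and 99 reads, a ratio of 1.53 (1.11 to 2.12). For both genes the annotation has transcripts on the opposite strand that overlap their exons, and whether reads were counted by strand is not given in the sources used here. Fgf5, the classical ligand marker of the primed epiblast, had 4 and 9 reads, at 0.240 and 0.560 RPKM, and its ratio of 2.33 had an interval of 0.651 to 10.4. At this depth no difference in Fgf5 was detectable. Fgf8, a ligand of the streak and later organizers, had 2 reads and 1 read.

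The other 3 epiblast genes have structural or RNA-binding roles. Lin28b, which encodes a protein that blocks maturation of let-7 microRNAs, was at 6.62 and 6.54 RPKM, with a ratio of 0.989 (0.821 to 1.19) from 238 and 227 reads. Cldn6, a tight junction protein of epithelial epiblast, was at 7.88 and 7.03 RPKM, with a ratio of 0.892 (0.636 to 1.25). The intervals of Lin28b and Cldn6 thus included 1, and that of Cldn6 was the wider. Cdh2, the N-cadherin gene that rises when epithelial cells become migratory, was at 0.647 and 1.11 RPKM from 20 and 33 reads, a ratio of 1.71 (0.953 to 3.15), and its interval included 1. Summed over all 12 epiblast genes, the level was 88.5 RPKM with the control siRNA and 90.9 RPKM with the Set1a siRNA.

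The primitive streak and mesoderm genes were low in both libraries, with summed levels of 7.12 and 8.95 RPKM over 15 genes, from 88 and 111 reads. Twist1, a basic helix-loop-helix factor of mesenchyme, was at 1.66 RPKM with the control siRNA and 3.25 RPKM with the Set1a siRNA. Its ratio was 1.96 (1.08 to 3.68), from 18 and 34 reads. Of the 7 fibroblast markers, Thy1 was at 2.42 and 3.86 RPKM, with a ratio of 1.59 (0.966 to 2.66), and Col1a1 had 2 and 11 reads, a ratio of 5.70 (1.24 to 52.9). Lum had 0 reads and 1 read, Col3a1 went the other way with 1 read and 0 reads, and the other 3 had none. Their part in the Twist1, Sfrp2 and Fgf15 values was not tested. Cer1, a secreted antagonist of NODAL, BMP and WNT, was at 2.07 and 0.894 RPKM from 24 and 10 reads, the marker with the lowest log2 fold above the floor. Its ratio was 0.432 (0.184 to 0.937), and with 1 RPKM added its log2 fold was -0.70. With a 99% interval, chosen after seeing the data, neither Twist1 nor Cer1 excluded 1. Snai1, a zinc finger repressor of E-cadherin, was at 1.14 and 1.47 RPKM, with a ratio of 1.30 (0.566 to 3.03).

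The defining factors of the streak were near the limit of detection. T, the brachyury gene, was at 0.367 RPKM with the control siRNA and 0.533 RPKM with the Set1a siRNA, from 5 and 7 reads, a ratio of 1.45 (0.396 to 5.80). Gsc, a homeobox gene of the organizer, had 4 and 6 reads, and Evx1, a homeobox gene of the posterior streak, had 5 and 6. Mixl1, a homeobox gene of mesendoderm, had 4 and 2 reads, and Tbx6, a T-box gene of paraxial mesoderm, had 2 and 5. None of these genes could be told apart between libraries by counting. Of the ligands that induce the streak, Wnt3 and Wnt3a each had 0 reads with the control siRNA and 3 with the Set1a siRNA, at or under the limit that 0 reads allow. Kdr, a receptor for VEGF on blood and vessel progenitors, had 5 and 14 reads, at 0.138 and 0.4003 RPKM, with a ratio of 2.90 (0.988 to 10.3). Isl1, a LIM homeobox gene of heart and motor neuron progenitors, had 9 and 6 reads, a ratio of 0.691 (0.202 to 2.17).

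**Figure D4:**
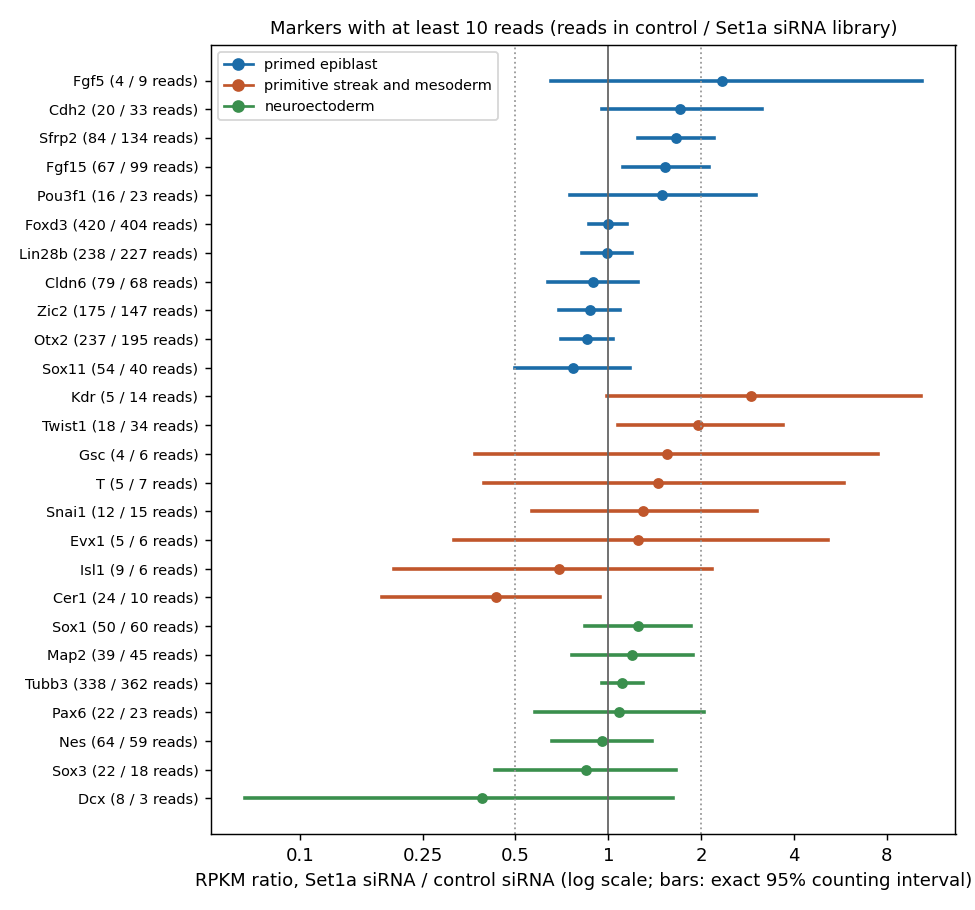
RPKM ratio of the Set1a siRNA library to the control siRNA library (x axis, log scale) for the 26 markers with at least 10 reads, with exact 95% counting intervals as bars and the reads of each library beside the name; dotted lines mark 2-fold either way. Only the bars of Sfrp2, Fgf15, Twist1 and Cer1 do not cross 1, and genes with few reads, such as Fgf5, Kdr and Dcx, have wide bars.

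Of the 7 neuroectoderm genes with at least 10 reads, 0 had an interval above 1 (11.8% of all genes by the same rule) and 0 below (10.1%). Counts of 0 among 7 genes are near those shares. Tubb3, a neuronal beta-tubulin and the most abundant of the 38 markers, was at 27.2 RPKM with the control siRNA and 30.2 RPKM with the Set1a siRNA. From 338 and 362 reads its ratio was 1.11 (0.955 to 1.29). The transcription factors of neural progenitors were far lower. Sox1, one of the earliest neural genes, was at 1.49 and 1.85 RPKM, with a ratio of 1.24 (0.840 to 1.85) from 50 and 60 reads. Pax6, a paired box factor of the neural tube and eye, was at 1.29 and 1.40 RPKM, with a ratio of 1.08 (0.577 to 2.04), and its other 4 listed transcripts had 22 or 23 and 23 to 25 reads. Sox3 was at 1.60 and 1.36 RPKM, with a ratio of 0.848 (0.429 to 1.66). These factors thus lay on both sides of 1, within counting error.

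Of the cytoskeletal genes, Nes, an intermediate filament of neural stem cells, was at 1.57 and 1.4999 RPKM, with a ratio of 0.956 (0.659 to 1.38). Map2, a microtubule-associated protein of dendrites, was at 1.08 and 1.29 RPKM, with a ratio of 1.20 (0.762 to 1.89). Dcx, which binds microtubules in migrating neurons, was at 0.268 and 0.104 RPKM, a ratio of 0.389. Its interval of 0.0664 to 1.62 rests on 8 and 3 reads, the pair fitted to that ratio. This pair is uncertain, since another listed Dcx transcript, at nearly the same level, was given 16 and 6 reads. By the length used, 3 reads with the control siRNA would already be 0.338 RPKM. The width of the Dcx interval is therefore uncertain too. The remaining neural markers were barely seen: Zic1 had 2 reads and 1 read, and Neurog2, a proneural factor, had 0 reads and 1 read. Hes5, a target of Notch, and Olig2, a factor of motor neuron and oligodendrocyte progenitors, had none. Summed over the 11 genes, the level was 34.6 RPKM with the control siRNA and 37.8 RPKM with the Set1a siRNA, most of it from Tubb3.

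Further genes of the same programmes were read from lists outside the markers. Of the 14, 4, 5 and 16 members above the floor, in the order below, 0 passed 2-fold in either direction. Of all genes above the floor, 0.771% did so upward and 0.407% downward, so a count of 0 is near those shares. Of 15 other epiblast genes, 14 were above the floor, 8 higher and 6 lower, with a median log2 fold of 0.03. Of the 15, 5 had a counting interval above 1 (11.8% of all genes by the same rule) and 0 below (10.1%). Besides Tcf15 these were Nodal (ratio 1.15), Tdgf1 (1.09), Utf1 (1.15) and Lin28a (1.096). These 4 have many reads and narrow intervals. Tcf15, a basic helix-loop-helix factor of cells primed to differentiate, was the farthest out, at 31.8 and 56.0 RPKM, with a ratio of 1.76 (1.48 to 2.10). Zic5, a neighbour of Zic2 in the same family, was lower, like Zic2, at 3.28 and 2.61 RPKM, with a ratio of 0.797 (0.588 to 1.08). Cldn7, related to Cldn6, had 23 and 14 reads, a ratio of 0.631 (0.300 to 1.28). Etv4, an ETS factor induced by FGF signals, had a ratio of 1.19 (0.997 to 1.43). The intervals of Zic5, Cldn7 and Etv4 included 1.

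Of 23 other streak, mesoderm and endoderm genes, 4 were above the floor, 3 higher and 1 lower. Eomes, a T-box factor of the streak, was at 2.55 and 3.77 RPKM, with a ratio of 1.48 (1.06 to 2.08). Bmp4, a BMP ligand, had a ratio of 1.13, Cdx1 of 1.23 and Snai2 of 0.845, and the interval of each included 1. Of 25 other neural genes, 5 were above the floor, 4 higher and 1 lower. Gbx2, a homeobox gene of the hindbrain that naive cells also express, was at 13.6 and 18.5 RPKM, with a ratio of 1.35 (1.12 to 1.64), and Stmn2, a microtubule regulator of neurons, at 123 and 107 RPKM, with a ratio of 0.876 (0.816 to 0.940). Elavl3 and Ncam1 had intervals of 0.871 to 1.84 and 0.933 to 1.31.

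Of 23 receptors and partners of the ligands and receptors among the markers, 16 were above the floor, 13 higher and 3 lower, with a median log2 fold of 0.17; of all genes above the floor 51.2% were higher. Of the 21 with at least 10 reads, 5 had an interval above 1 (11.8% of all genes by the same rule) and 0 below (10.1%). The 5 were Notch1, Notch2 (ratio 1.23), Notch3, Lrp5 (1.17) and Vegfa (1.21). Notch3 was at 3.27 and 4.96 RPKM, with a ratio of 1.52 (1.24 to 1.85), and Notch1 at 4.13 and 5.43 RPKM, with a ratio of 1.31 (1.11 to 1.55). Their target Hes5, as given above, was listed at 0 in both libraries. Fzd8 and Fzd9, receptors for WNT, had ratios of 1.33 (0.978 to 1.81) and 1.44 (0.665 to 3.19), and each interval included 1.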

How the data were processed

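RNA of 2 libraries, 1 per siRNA, was compared. The authors deposited 1 value per RefSeq transcript for 28430 transcripts. No header names the unit; it was inferred from the deposited values to be RPKM, since the product of value and transcript length mostly comes in whole steps: with lengths of another annotation release, 74.8% (control) and 73.8% (Set1a siRNA) of transcripts with 1 to 5 reads lay within 0.1 of a whole read. The build was mm9, and TopHat2 2.0.12, TopHat, SAMtools 0.1.16 and CASAVA were used, per the submitters' processing notes. Which program counted reads, whether by strand, and how it treated reads with several matches is not given in the sources used here.

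Symbols came from RefSeq (GRCm38.p6) and from GENCODE M21 (27957 transcripts matched) and lengths from GENCODE M21. Read numbers were recovered from the ratio of both values of a transcript, which must be a ratio of whole numbers times the depth ratio of 0.965; 96.9% of 7365 transcripts with up to 100 reads fit within a relative 2e-05. Up to about 600 reads the fitting pair nearest the length-based number was taken, but above 100 reads several pairs can fit; beyond 600 reads, or at 0 in 1 library, reads were rounded from lengths. Such numbers are approximate. Intervals are exact Clopper-Pearson, 95%, and cover counting error only. A marker with at most 3 reads in each library received no ratio. Calls used 2-fold with 1 RPKM added and a floor of 1 RPKM mean. GENCODE M21 has exons on the opposite strand over 8 markers: Otx2, Pou3f1, Fgf15, Sfrp2, Evx1, Zic1, Map2 and Hes5.

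The markers, their roles and the other lists were chosen with earlier results of these data known. Every marker with at least 10 reads was named with values, and of each other programme list the 4 genes with the largest fold above the floor; the fibroblast genes and the other genes with an interval that excludes 1 were named after their values were seen. Scripts (Python 3.11.15, scipy 1.17.1, pandas 2.3.3) were tested on simulated counts. Alternatives varied the added RPKM, floor, scaling, transcript choice and fold.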

Additional observations from a re-analysis of the deposited data

How the results depend on the processing

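No paired analysis was possible because there was only 1 library for each siRNA. No marker was at least 2-fold lower as reported, but Cer1 (1 gene) was with 0.1 RPKM added. A 1.5-fold rule in place of 2-fold called 1 marker lower, Cer1, and 2 higher, Sfrp2 and Twist1. Plain ratios for markers with at least 10 reads, chosen after seeing the data, gave 2 higher (Fgf5 and Kdr) and 2 lower (Cer1 and Dcx). A 99% counting interval, also chosen after seeing the data, left Sfrp2 and Fgf15 above 1 (2) and 0 markers below 1. The median log2 fold of the markers, 0.03 as reported (0.032), was 0.052 with 0.1 RPKM added, 0.011 with 5 RPKM added, -0.0086 with a floor of 5 RPKM, and 0.045 both with the transcript with the most reads and with the longest transcript. Without a floor all 38 markers entered, and with a floor of 5 RPKM 8 did. These shifts follow from which genes or transcripts enter and how much is added. Of 156 values recomputed for the 26 named markers, 0 changed sign. This was mostly fixed in advance and is no check of the directions. The amount added cannot change a sign, and only 4 of the 38 markers have several listed transcripts. The scaling factors of 1.005 and 0.998 were close to 1. With the limits of the reported counting interval put on the scale with 1 RPKM added, 155 stayed inside. The exception was Dcx, at -0.20 as reported and at -0.85 with 0.1 RPKM added. That value and those limits are on different scales, so the exception reflects the amount added. Depth limits the streak genes most, since T, Mixl1, Gsc, Evx1 and Tbx6 rest on 12 reads or fewer.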
